A study of Mus musculus with 20 samples.

Results

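Long intergenic noncoding RNAs (lincRNAs) expressed in the mouse colon were examined in a model of colitis-associated colorectal cancer, with and without the Chinese medicine formula Pien Tze Huang (PZH). A gene was taken as a lincRNA where the GENCODE M21 annotation gives it that type. The members were selected on measured values: the FPKM of each lincRNA, summed over its Ensembl transcripts, had to average at least 2 over the 20 mice. FPKM counts fragments per kilobase of transcript, scaled to the mapped fragments of the library, so it is a level per length. The files do not name their unit, which was taken as FPKM from the study's StringTie step and from the values. The rule kept 68 of the 2539 lincRNA genes in the files, which hold 32991 genes in all.

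All mice were male C57BL/6, and their age is not given in the sources used here. Each of the 4 groups held 5 mice with 1 library each. Control mice received distilled water by gavage for 91 days. PZH mice received 250 mg/kg/d of PZH for the same 91 days. AOM/DSS mice, labelled Model, received 1 intraperitoneal injection of 12.5 mg/kg azoxymethane (AOM, a colon carcinogen) and, after 7 days, 2% dextran sulfate sodium (DSS, which injures the colon epithelium) in the drinking water for 5 days followed by water for 2 weeks, over 4 cycles, with distilled water by gavage. PZH + AOM/DSS mice, labelled Model + PZH, received AOM, DSS and PZH. Mice are named here by group and mouse number.

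LincRNAs are transcribed from their own genes outside protein-coding genes, and most are spliced and polyadenylated like messenger RNAs without encoding a long protein. Some act in the nucleus, where Neat1 builds paraspeckles and Malat1 gathers at splicing speckles. Others are host transcripts whose introns or exons release small nucleolar RNAs or microRNAs, and many lie next to a coding gene and share its promoter region. In the colon, tumours, inflammation and the mix of epithelial, muscle and immune cells can all be accompanied by different lincRNA levels.

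Depth, read from the smallest step between low FPKM values, was about 15300000 to 19400000 fragments per mouse, with 40.5% to 45.2% of low values on whole steps, so it is approximate. The label for RNA extraction names the abdominal aorta, while tissue and title give colon. The 8 colonocyte markers summed to 753 to 4593 FPKM over the 20 mice and the 4 arterial wall markers to 12.2 to 44.1 FPKM. The 6 smooth muscle markers summed to 2244 to 5172 FPKM in Control mice, 1039 to 2412 in PZH mice, 996 to 1734 in AOM/DSS mice and 872 to 2300 in PZH + AOM/DSS mice. The 5 squamous epithelium markers summed to 0.82 to 299 FPKM in Control mice and to 57.9 FPKM or less in the other groups, and no marker of these lists was at 0 in every mouse. Colon tissue of mixed cell types was sequenced, and the sources used here do not name the segment. Fewer cells of a type, less RNA per cell and a different piece of colon cannot be told apart.

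Most of the expressed lincRNAs were present at low levels. Of the 68, 39 averaged under 5 FPKM, 15 between 5 and 10, 10 between 10 and 50 and 4 at 50 or more. Their median of 4.22 FPKM compares with 10.2 FPKM for protein-coding genes that reach the same 2 FPKM. All 4 group means reached 2 FPKM in 51 members, and in 17 at least 1 group mean was lower, so those 17 owe their place in part to the groups where they are high. Just inside the threshold stood Dubr at 2.04, Gm3054 at 2.03 and Gm32391 at 2.02 FPKM. Just outside it stood A730063M14Rik at 1.90, the imprinted growth regulator H19 at 1.86 and D730003I15Rik at 1.83 FPKM. Single-exon transcripts made up 16 members, exons of 22 overlapped another annotated gene, and 11 began within 1 kb of the start of a coding gene that runs the other way. RefSeq gives Tmem250-ps, 1810058I24Rik, Gm46430 and D930016D06Rik as protein-coding and Gm10076, Gm42418 and 4632415L05Rik as pseudogenes, so their type is uncertain.

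The 12 most abundant members were led by AY036118, with a mean of 946 FPKM over the 20 mice. It was followed by Malat1 at 81.5, Gm10076 at 77.6, AW112010 at 73.4, Neat1 at 49.8, Gm26917 at 44.4 and 2900097C17Rik at 40.8 FPKM. The last of these is Norad, which binds Pumilio proteins. Lower in the order came the small nucleolar RNA host Snhg6 at 25.2, 1700020I14Rik (Cyrano, Oip5os1 in RefSeq) at 23.3, Tmem250-ps at 18.5, Snhg18 at 17.8 and Epb41l4aos at 15.4 FPKM. Neighbours in this order had overlapping ranges in all 4 groups, except 2900097C17Rik and Snhg6, which overlapped in 1 group, and Tmem250-ps and Snhg18, which overlapped in 3. Gm10076 is uncertain because its transcript is 99.48% identical over 383 bases to Rpl41, a ribosomal protein gene at 1064 FPKM. Likewise uncertain is 2900097C17Rik, to which the member Gm7292, at 10.7 FPKM, is 99.17% identical over 2537 bases.

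**Figure D1:**
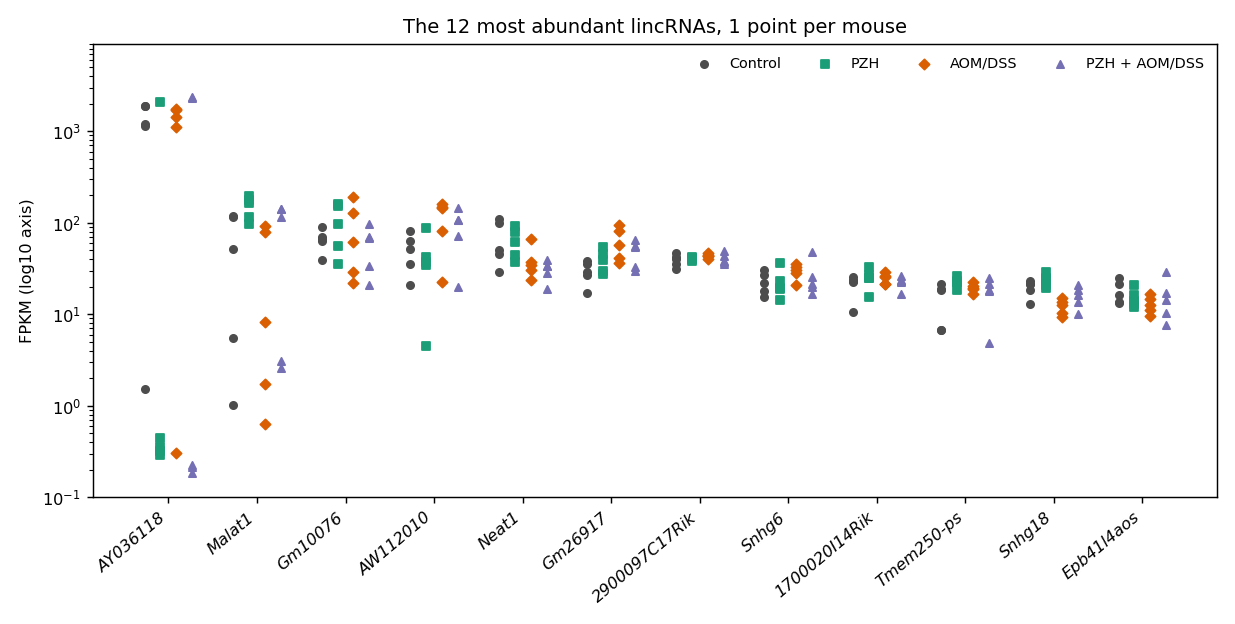
FPKM (log10 axis) of the 12 most abundant expressed lincRNAs, with 1 point per mouse and colour and shape by group. AY036118 and Malat1 split into high and low mice within groups, while 2900097C17Rik stayed between 31.1 and 48.7 FPKM in all 20 mice.

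Several members stood at a high level in some mice of a group and at a low level in others. The range within at least 1 group was 10-fold or wider, counting values under 0.1 FPKM as 0.1, in 10 of the 68 members. Those were AY036118, Malat1, Gm42418, Gm42889, Gm26532, Gm3054, Gm20300, AU020206, AW112010 and Mir142hg. In the other 58 the widest range was 8.67-fold. This grouping was made after the values were seen.

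AY036118 lies within the ribosomal DNA repeat on chr17:39847113-39848035, where it overlaps an annotated ribosomal RNA and, on the other strand, the member Gm42418. It stood at 1115 to 2341 FPKM in 11 mice and at 0.182 to 1.53 FPKM in the other 9, with no mouse between. High mice numbered 4 of 5 in Control, 1 of 5 in PZH, 4 of 5 in AOM/DSS and 2 of 5 in PZH + AOM/DSS. Gm42418 was at 7.82 FPKM in Control mouse 41 and 95.8 FPKM in AOM/DSS mouse 52 and at 0.408 FPKM or less in the other 18. The libraries were depleted of ribosomal RNA, the study's methods also name a poly(A) isolation kit, and whether depletion, poly(A) isolation or transcript assembly moved these values was not tested.

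Malat1 stood at 51.4 to 197 FPKM in 13 mice and at 0.624 to 8.14 FPKM in 7. The low mice were 2 of 5 in Control, none of 5 in PZH, 3 of 5 in AOM/DSS and 2 of 5 in PZH + AOM/DSS. High AY036118 and low Malat1 coincided in 6 mice, the reverse in 8, both were high in 5 and both low in 1. In PZH against Control the log2 fold change of FPKM + 1 was 2.56 ± 1.04 (SE) for Malat1 (adjusted P = 0.545, limma) and -6.15 ± 2.43 for AY036118 (adjusted P = 0.539), so neither passed the test.

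Gm42889 was at 15.6 FPKM in Control mouse 41, 29.9 in AOM/DSS mouse 23 and 22.6 in AOM/DSS mouse 52, and at 0.782 FPKM or less in the other 17 mice. Among 5362 transcripts that the authors assembled and that average 2 FPKM or more, 1 was at 0.220 FPKM or less in exactly those 3 mice and at 30.5 to 43.3 FPKM in the rest. That transcript was picked for this pattern after the values were seen, and whether the same reads were assigned to either name was not tested. Gm3054, next to the mucin gene Muc3, was at 1.74 to 7.91 FPKM in 4 of 5 Control, 3 of 5 PZH, 0 of 5 AOM/DSS and 2 of 5 PZH + AOM/DSS mice, and at 0.0587 FPKM or less in the other 11. It was too rarely detected for the test in AOM/DSS against Control.

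**Figure D2:**
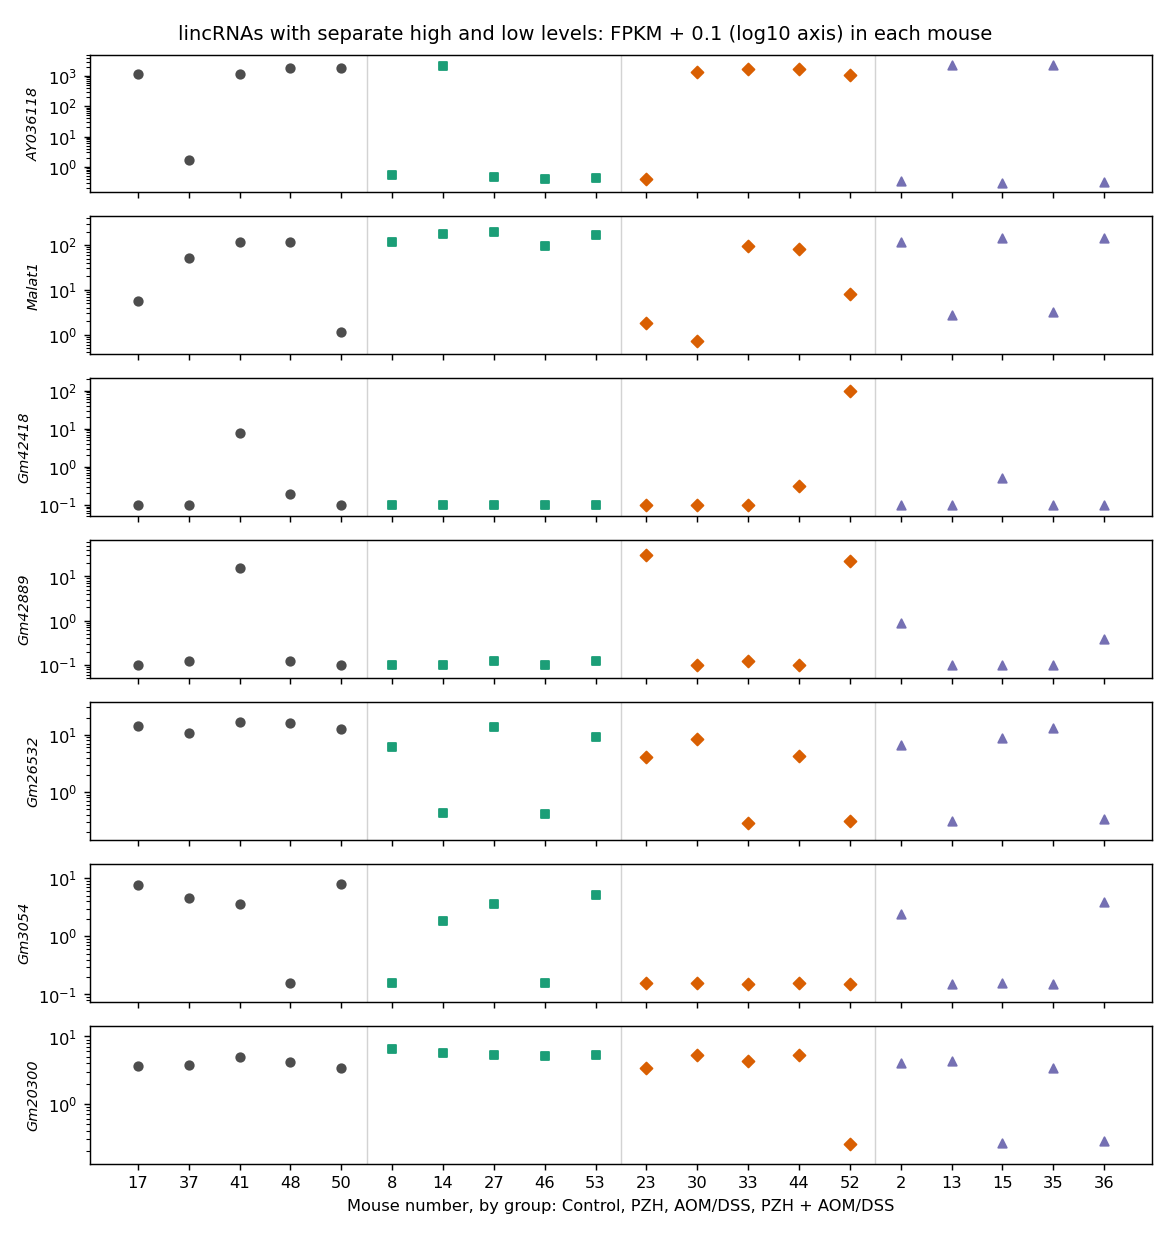
FPKM + 0.1 (log10 axis) of 7 expressed lincRNAs in each mouse, by group and mouse number. Each lincRNA has mice at separate high and low levels, and Gm3054 was low in all 5 AOM/DSS mice.

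The ribosomal DNA loci set the total. Summed over all 68 members, FPKM was 1875 ± 811 (SD, n = 5) in Control and 1213 ± 959 in PZH mice. It was 1960 ± 757 in AOM/DSS mice and 1596 ± 1214 in those given PZH as well. None of the 4 comparisons passed a two-sided exact permutation test, whose smallest possible p with 5 against 5 is 0.00794. The exact p was 0.746 for AOM/DSS and 0.27 for PZH, each against Control, while PZH + AOM/DSS gave 0.587 against AOM/DSS and 0.794 against PZH. Without AY036118, Gm26917 and Gm42418 the remaining 65 members summed to 618 ± 52.6 in Control and 751 ± 124 in PZH mice, and to 677 ± 100 in AOM/DSS mice without PZH and 615 ± 110 with it. The difference between PZH and Control then changed sign, from -662 to 133 FPKM, with an exact permutation p of 0.0714.

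The comparison of AOM/DSS with Control asked what the tumour model does to the colon. Among 65 members tested with limma, 8 rose and 6 fell at adjusted P under 0.05, which is 21.5%, against a background of 23.6% of 15812 genes, 16.4% higher and 7.23% lower. The share of members called was thus close to that of genes in general. Among the 14 called, AI427809, 9330158H04Rik, Gm10384 and Hottip averaged under 2 FPKM in 1 of the compared groups, so their membership rests in part on the groups where they were high. With both group means at 2 FPKM or more, 10 of 52 members were called, or 19.2%, against 22.2% of 11338 genes, a restriction chosen after the values were seen. The median log2 fold change was 0.04 for members and 0.09 for all genes. The levels of the groups did not overlap in 8 members, or 12.3%, against 18.4% of all genes. A fold of FPKM + 1 above 2 with unadjusted P under 0.05 took 6 members, or 9.23%, against 7.71% of genes. The study's methods apply a fold above 2 and P under 0.05 to transcripts with DESeq, a different measure. On the ratio of mean FPKM, 5430416N02Rik (2.15), Gm14005 (2.37), Gm36738 (0.49) and Hottip (0.41) also differed over 2-fold with unadjusted P under 0.05. The share of all genes on that ratio was not computed. The split of higher and lower calls depended on scaling: median-of-ratios scaling, which shifted this comparison by -0.11 on the log2 scale, gave 5 higher and 6 lower, and scaling to summed protein-coding FPKM, which shifted it by 0.10, gave 11 higher and 4 lower. Of all genes these scalings called 22.3% and 27.1%. In the same comparison 4 of 8 colonocyte, 6 of 6 smooth muscle and 3 of 5 enteric neuron and glia markers fell, while 4 of 4 Paneth-type and 3 of 4 neutrophil markers rose, and their part in the members' results was not tested. The count fell to 9 without AOM/DSS mouse 23, without AOM/DSS mouse 44 or without Control mouse 48. Over all genes, 18%, 16.3% and 18.8% passed in those fits.

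Gm10451, a spliced lincRNA of unknown function on chromosome 12, had the smallest P. Its level was 3.33, 4.13, 2.51, 5.41 and 5.57 FPKM in the Control mice and 14.7, 13.3, 18.1, 18.1 and 16.95 FPKM in the AOM/DSS mice. The lowest AOM/DSS mouse exceeded the highest Control mouse, with a log2 fold change of 1.76 ± 0.18 (SE, adjusted P = 0.000104, limma) and 3.88 times the mean. All 3 annotated isoforms were higher on average, the most abundant being Gm10451-202 at 2.25 ± 0.51 FPKM in Control and 8.16 ± 0.44 FPKM in AOM/DSS (SD, n = 5). The nearest coding gene, Ppp1r36, 5005 bases away, was at 0.0744 FPKM in Control and 0.883 FPKM in AOM/DSS, too low for the test.

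AI427809, named Mexis in RefSeq, is a lincRNA known from macrophages, where it is induced by the sterol receptor LXR and supports transcription of the cholesterol exporter Abca1. Its level was 0.412, 2.33, 2.51, 3.48 and 0.632 FPKM in Control mice and 11.8, 7.17, 11.6, 19.3 and 2.99 FPKM in AOM/DSS mice. The groups overlapped only through AOM/DSS mouse 52, and the log2 fold change was 1.96 ± 0.45 (adjusted P = 0.0107, limma). Abca1, 101461 bases away, had a mean of 1.56 FPKM in Control and 3.55 FPKM in AOM/DSS, a log2 fold change of 0.81 ± 0.46 that did not pass the test (adjusted P = 0.235, limma). The 5 macrophage markers summed to 103 to 203 FPKM in Control mice and 162 to 232 FPKM in AOM/DSS mice, with 3 of the 5 higher at adjusted P under 0.05, and their part in this result was not tested.

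AU020206 lies 14429 bases from Akap13, a kinase anchoring protein gene. It stood at 2.96, 5.77, 6.57, 6.30 and 2.78 FPKM in Control and at 11.1, 12.4, 22.4, 14.7 and 11.8 FPKM in AOM/DSS. The groups did not overlap, and the log2 fold change was 1.42 ± 0.26 (adjusted P = 0.00298, limma). The call did not hold with all 20 mice in 1 model (adjusted P = 0.0734).

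Smaller rises were seen in 5 further members. Gm26917, a ribosomal DNA repeat locus, rose from 29.3 ± 8.26 to 62.0 ± 25.3 FPKM (SD, n = 5), a log2 fold change of 1.01 that lost its call when any of 6 of the 10 mice was left out. 5430416N02Rik rose by 0.89, Gm10384 by 0.50, 1810058I24Rik by 0.45 and BC002059 by 0.39 on the log2 scale. Of these, 1810058I24Rik encodes the short mitochondrial peptide Stmp1 and is protein-coding in RefSeq, and each of its AOM/DSS values, 13.4 to 18.5 FPKM, lay above the Control range of 9.43 to 11.3 FPKM. Under median-of-ratios scaling the calls of 1810058I24Rik, BC002059 and Gm10384 were lost, and limma voom lost that of 5430416N02Rik (adjusted P = 0.0862). Leaving out 1 mouse lost the call of Gm10384 for 6 of the 10 mice and that of BC002059 for 4.

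Among the members that fell, 9330158H04Rik is a lincRNA whose exons overlap Chrm2, the muscarinic receptor of smooth muscle, on the opposite strand. Its level was 5.17, 3.07, 3.72, 2.53 and 7.74 FPKM in Control and 0.986, 1.03, 1.37, 0.5998 and 1.08 FPKM in AOM/DSS. Control was the 1 group whose mean reached 2 FPKM, so it is a member through the group from which it fell. All AOM/DSS mice were below all Control mice, with a log2 fold change of -1.37 ± 0.23 (adjusted P = 0.00219, limma). Chrm2 fell with it, from 3.79 to 1.40 FPKM on average (log2 fold change -1.05 ± 0.30, adjusted P = 0.0275). No strand setting is given in the sources used here, so reads of this pair may not be told apart, and all 6 smooth muscle markers fell in the same comparison, whose part in the result was not tested.

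Gm15706, a lincRNA of unknown function, stood at 8.50, 6.95, 7.11, 8.05 and 9.70 FPKM in Control and at 5.19, 6.40, 4.69, 4.22 and 4.69 FPKM in AOM/DSS. The ranges did not overlap, with a log2 fold change of -0.59 ± 0.13 (adjusted P = 0.0101, limma).

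Gm26532 lies on chromosome 8, where its start touches the hairpin of Mir24-2. It was at 13.9, 10.8, 16.8, 15.95 and 12.5 FPKM in Control and at 3.93, 8.25, 0.189, 4.17 and 0.206 FPKM in AOM/DSS, so the groups did not overlap. The log2 fold change was -2.21 ± 0.53 (adjusted P = 0.0132, limma). In contrast the nearest coding gene, Zswim4, 1069 bases away, rose from 4.95 to 8.26 FPKM (adjusted P = 0.0062). Levels of 0.335 FPKM or less also occurred in 2 of 5 PZH and 2 of 5 PZH + AOM/DSS mice.

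Hottip, at the distal end of the Hoxa cluster 1895 bases from Hoxa13, is known to help keep the posterior Hoxa genes active. It was at 3.23, 1.40, 3.06, 2.16 and 3.11 FPKM in Control and at 0.584, 1.49, 2.54, 0.367 and 0.375 FPKM in AOM/DSS. The groups overlapped, the log2 fold change was -0.87 ± 0.28 (adjusted P = 0.0476, limma), and the call was lost when any of 7 of the 10 mice was left out. Hoxa13 was at 24.3 ± 4.42 FPKM in Control and 21.6 ± 4.31 FPKM in AOM/DSS (SD, n = 5; adjusted P = 0.494, limma). Gm36738 lies 1628 bases from the leukocyte GTPase gene Rac2. It fell by 0.80 on the log2 scale, a call lost when any of 7 of the 10 mice was left out, while Rac2 rose by 1.25 (adjusted P = 0.0153).

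**Figure D3:**
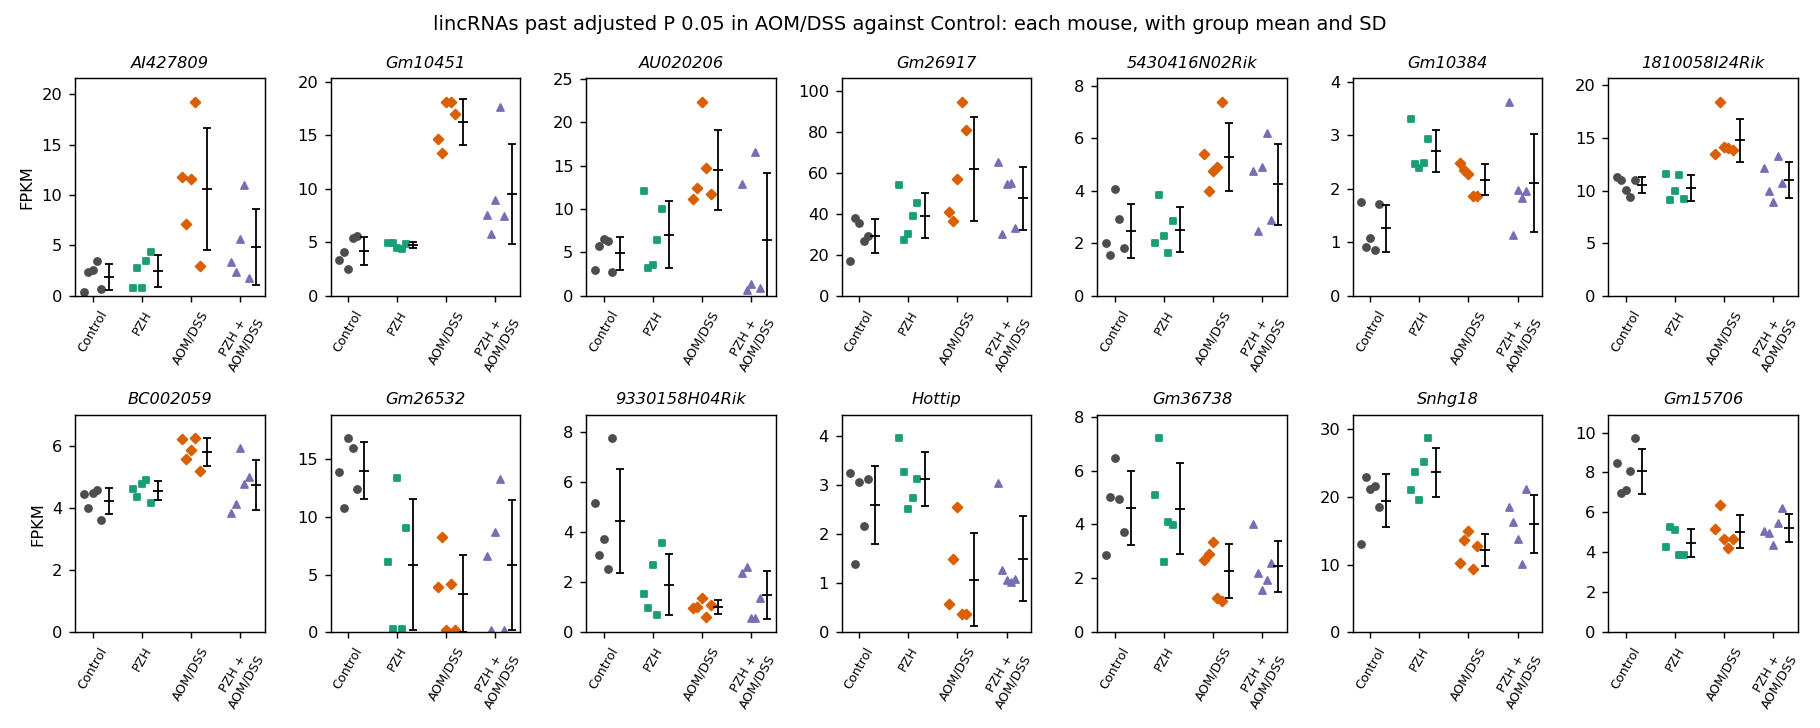
FPKM of the 14 lincRNAs past adjusted P 0.05 in AOM/DSS against Control, with 1 point per mouse, the group mean (horizontal bar) and SD (vertical bar) in all 4 groups. The AOM/DSS mice of Gm10451 lie between 13.3 and 18.1 FPKM, above all Control and PZH mice, and PZH + AOM/DSS mouse 35 stands among them at 17.6 FPKM.

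The promoters of 4 of these members are shown so that the regions where the changed transcripts begin can be compared. They come from RefSeq sequences of the GRCm38.p6 build, run from 250 bases before to 50 bases after the start, and have matches to the CCAAT box (CCAAT) and the CDX motif (TTTATNG) on either strand in capitals.
Gm10451, chr12:76444247-76444546, plus strand: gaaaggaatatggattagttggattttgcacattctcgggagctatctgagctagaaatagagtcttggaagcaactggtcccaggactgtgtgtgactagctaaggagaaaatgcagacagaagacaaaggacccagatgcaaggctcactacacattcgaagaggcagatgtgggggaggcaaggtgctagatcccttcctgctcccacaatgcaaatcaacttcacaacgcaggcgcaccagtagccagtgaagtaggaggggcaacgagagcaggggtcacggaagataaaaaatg
AI427809, chr4:53270183-53270482, minus strand: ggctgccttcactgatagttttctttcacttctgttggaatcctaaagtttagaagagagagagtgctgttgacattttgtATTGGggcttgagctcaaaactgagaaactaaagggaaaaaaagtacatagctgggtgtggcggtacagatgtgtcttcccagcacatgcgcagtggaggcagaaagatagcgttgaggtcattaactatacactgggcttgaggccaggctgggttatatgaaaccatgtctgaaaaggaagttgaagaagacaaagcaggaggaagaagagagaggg
AU020206, chr7:75782071-75782370, minus strand: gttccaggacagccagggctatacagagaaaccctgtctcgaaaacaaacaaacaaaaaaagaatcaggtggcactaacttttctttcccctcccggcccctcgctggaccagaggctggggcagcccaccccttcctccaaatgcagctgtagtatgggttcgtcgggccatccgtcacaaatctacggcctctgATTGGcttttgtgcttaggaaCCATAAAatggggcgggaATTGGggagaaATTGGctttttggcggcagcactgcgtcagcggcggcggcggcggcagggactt
Hottip, chr6:52262525-52262824, plus strand: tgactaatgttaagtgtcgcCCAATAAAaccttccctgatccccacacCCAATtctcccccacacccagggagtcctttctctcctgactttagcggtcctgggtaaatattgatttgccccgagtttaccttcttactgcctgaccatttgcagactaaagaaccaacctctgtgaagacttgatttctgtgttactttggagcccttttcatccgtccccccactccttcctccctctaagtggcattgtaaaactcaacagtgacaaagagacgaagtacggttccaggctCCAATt
AU020206 was 55.7% G and C with 15 CpG pairs, against 49.3% and 6 pairs in Gm10451 and 45% and 3 pairs in AI427809. CCAAT occurred in 19 of 42 member promoters, or 45.2%, and in 37.4% of 32851 promoters. TTTATNG occurred in 9.52% of member promoters and 10.9% of all, and in Hottip 1 match overlaps a CCAAT box. Other motifs searched on both strands had no match in these 4 windows. They were the AP-1 motif TGANTCA, which 7.81% of all promoters hold, and the Myc E-box, with the letters CACGTG, which 7.15% hold. The TCF/LEF motif that reads CTTTGAT was held by 3.73% and the TATA box, written TATAAA, by 13.6% of all promoters.

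Coding genes next to expressed lincRNAs were called about as often as other coding genes. In AOM/DSS against Control 15 of the 49 nearest coding genes tested and reported passed adjusted P 0.05, or 30.6%, against 24.9% of 13526 protein-coding genes. Of the 14 called members 10 had such a neighbour, and 6 of those pairs had the same sign. The neighbour was called in the same direction in 2 pairs, 9330158H04Rik with Chrm2 and Gm10384 with Ywhaz, and in the opposite direction in 2, Gm26532 with Zswim4 and Gm36738 with Rac2.

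**Figure D4:**
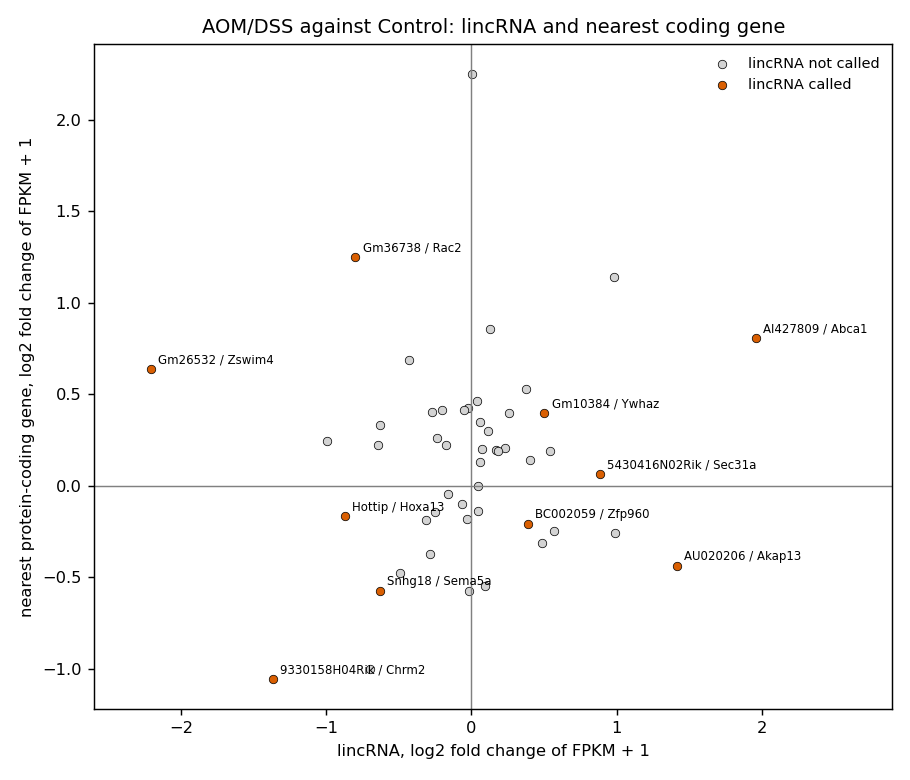
Log2 fold change of FPKM + 1 in AOM/DSS against Control for each expressed lincRNA (horizontal axis) and its nearest tested protein-coding gene (vertical axis), with called lincRNAs named. Points lie in all 4 quadrants, and 6 of 10 called pairs have the same sign.

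The list of nuclear or chromatin-associated lincRNAs held 4 members. None of them (Malat1, Neat1, 2900097C17Rik and Meg3) passed the test in any of the 4 comparisons, against 23.6% of genes in AOM/DSS against Control and 2.42% or less in the others, and 4 members are too few to set beside those shares. Neat1 averaged 66.9 ± 35.9 FPKM in Control and 63.3 ± 22.98 in PZH mice, and 38.4 ± 16.1 in AOM/DSS mice without PZH and 30.8 ± 7.56 with it (SD, n = 5). In PZH + AOM/DSS the mice were at 28.4, 33.8, 19.1, 39.0 and 33.9 FPKM and in PZH at 62.0, 79.4, 92.4, 37.5 and 44.97 FPKM, so only mouse 35 of the former reached the lowest PZH mouse. The log2 fold change between them was -0.97 ± 0.26 (adjusted P = 0.0779, limma). The long isoform Neat1-201, of 20771 bases, on which paraspeckles are built, held 58.2% ± 10.04 of the gene's FPKM in Control and 69.0% ± 4.08 in PZH mice, and 61.7% ± 8.99 in AOM/DSS mice without PZH and 73.9% ± 6.54 with it. Whether poly(A) isolation moved this share was not tested. Meg3, a maternally expressed imprinted lincRNA, averaged 4.41 FPKM in Control and 4.56 in PZH mice, and 2.897 in AOM/DSS mice without PZH and 5.16 with it.

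The list of host transcripts of small nucleolar RNAs, which guide the modification of ribosomal RNA, held 5 members. In Snhg20 the annotation gives no small nucleolar RNA but the small Cajal body RNA Gm26083 and the microRNA Mir6516. Snhg18 was called in AOM/DSS against Control, 1 of 5 beside 23.6% of all genes. It was at 13, 22.9, 21.2, 21.6 and 18.6 FPKM in Control and 10.2, 13.7, 14.99, 9.33 and 12.8 FPKM in AOM/DSS, a log2 fold change of -0.63 ± 0.17 (adjusted P = 0.0251, limma). The groups overlapped through Control mouse 17, and the call was lost when any of 5 of the 10 mice was left out. Sema5a, a semaphorin gene 148 bases from Snhg18 that runs the other way, averaged 6.65 FPKM in Control and 4.06 FPKM in AOM/DSS (adjusted P = 0.332). Snhg6 averaged 22.6 and 29.8 FPKM in these groups, Snhg12 8.64 and 10.1, Snhg20 10.7 and 10.1, and Epb41l4aos 18.01 and 12.9, with adjusted P of 0.144 to 0.961 lying above the threshold.

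Immune lincRNAs were higher on average in AOM/DSS without passing the test. AW112010, an interferon-induced transcript of immune and epithelial cells that is translated into a small protein, was at 63.0, 80.4, 20.97, 51.2 and 35.4 FPKM in Control and 80.4, 22.6, 160, 150 and 145 FPKM in AOM/DSS. The groups overlapped through AOM/DSS mouse 30, mouse 23 stood level with the highest Control mouse, and the log2 fold change was 0.99 ± 0.54 (SE, adjusted P = 0.214, limma). Gm14005, named Morrbid in RefSeq, is known to control the lifespan of neutrophils, eosinophils and monocytes through the death gene Bcl2l11 beside it. It was at 1.14, 1.99, 0.548, 1.69 and 4.16 FPKM in Control and 5.42, 2.15, 6.77, 3.55 and 4.71 FPKM in AOM/DSS, a log2 fold change of 0.98 ± 0.33 (adjusted P = 0.0523, limma). Bcl2l11 rose from 2.17 to 6.51 FPKM (log2 fold change 1.14 ± 0.29, adjusted P = 0.0169). The 4 neutrophil markers summed to 0.10 to 29.6 FPKM in Control and 87.1 to 494 FPKM in AOM/DSS, and their part in these levels was not tested. Mir142hg, the host of the blood cell microRNA Mir142, averaged 2.33 FPKM in Control and 3.01 FPKM in AOM/DSS.

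A host transcript that holds a microRNA hairpin can release the microRNA. Shown are 5 of the mature microRNAs whose genes lie in or touch members, with the seed (bases 2 to 8) in capitals. Others are not shown, among them miR-1839-5p in 2900076A07Rik, miR-1906 and miR-770-5p in Meg3 and miR-6516-5p in Snhg20. The libraries do not measure mature microRNAs, and the sequences are those of RefSeq on GRCm38.p6. The hairpin of miR-142a lies in Mir142hg, and those of miR-191 and miR-425 lie in 4833445I07Rik. The hairpin of miR-24-3p only touches Gm26532. As miR-24-3p ends at base 84208896 and Gm26532 begins at 84208920, the annotated transcript does not hold this microRNA.
miR-24-3p, chr8:84208875-84208896, plus strand: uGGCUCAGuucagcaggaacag
miR-142a-5p, chr11:87756867-87756887, plus strand: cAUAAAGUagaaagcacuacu
miR-142a-3p, chr11:87756903-87756925, plus strand: uGUAGUGUuuccuacuuuaugga
miR-191-5p, chr9:108568325-108568347, plus strand: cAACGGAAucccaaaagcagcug
miR-425-5p, chr9:108568789-108568811, plus strand: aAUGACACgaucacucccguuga
No seed is shared among these 5. 4833445I07Rik, which starts near Ndufaf3, had a log2 fold change of 0.49 ± 0.18 in AOM/DSS against Control (adjusted P = 0.0738, limma).

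PZH against Control asked what the formula does in healthy mice. With limma 0 of 66 members passed adjusted P 0.05, against 0.00645% of all genes, and limma voom on estimated fragments also called 0. At unadjusted P under 0.05 stood 14 members, or 21.2%, against 8.84% of genes, of which 10 were higher. Of the 14, Gm10384, 9330158H04Rik and Gm32391 averaged under 2 FPKM in a compared group, so their membership rests in part on the groups where they were high. The higher ones include AI480526, Gm38102 and 4932422M17Rik. Exons of the last 2 overlap AI480526 on the opposite strand, so their reads may not be told apart. The groups did not overlap in 3 members, or 4.55%, against 1.81% of genes. A fold of FPKM + 1 above 2 with unadjusted P under 0.05 took 3 members (Malat1, AY036118 and Gm26532), or 4.55%, against 0.69%. On the ratio of mean FPKM, Gm10384 (2.15) and 9330158H04Rik (0.43) also differed over 2-fold with unadjusted P under 0.05. The share of all genes on that ratio was not computed. The median log2 fold change was 0.10 for members and 0.01 for all genes.

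Gm15706 had the smallest P. It was at 4.28, 5.27, 5.14, 3.85 and 3.86 FPKM in PZH, below all Control mice, with a log2 fold change of -0.73 ± 0.13 (adjusted P = 0.248, limma). Gm10384 was at 3.30, 2.46, 2.38, 2.48 and 2.93 FPKM in PZH and at 1.75, 0.902, 1.09, 0.860 and 1.71 FPKM in Control, a log2 fold change of 0.73 ± 0.15 (adjusted P = 0.378, limma). Gm20300 was at 5.07 to 6.41 FPKM in PZH and 3.32 to 4.91 FPKM in Control, a log2 fold change of 0.42 ± 0.12 (adjusted P = 0.461, limma). In each of these 3 the groups did not overlap, but the difference did not pass the correction for all genes.

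PZH + AOM/DSS against AOM/DSS asked whether PZH alters the diseased colon. With limma 0 of 65 members passed adjusted P 0.05, against 0.00629% of genes, and limma voom called 0. At unadjusted P under 0.05 stood 7 members, or 10.8%, against 11.7% of genes. The groups did not overlap in 1 member, or 1.54%, against 1.08% of genes. A fold of FPKM + 1 above 2 with unadjusted P under 0.05 took 1 member, AU020206, or 1.54%, against 2.4%. The log2 fold change was negative in 45 of the 65, with a median log2 fold change of -0.11 against -0.04 for all genes.

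Gm10451 was at 7.59, 5.81, 8.94, 17.6 and 7.49 FPKM in PZH + AOM/DSS. Mice 2, 13, 15 and 36 lay below all AOM/DSS mice and above all PZH mice, and mouse 35 lay within the AOM/DSS range. The log2 fold change was -0.80 ± 0.24 (adjusted P = 0.356, limma), and without mouse 35 it was -1.03 ± 0.14 (adjusted P = 0.00745), the 1 call then made. Over all genes, 5.17% of 15639 passed in that fit. It was picked out after the values were seen. Mouse 35 is the mouse that stood apart for Gm10451, so leaving it out favours this call. No other mouse left out gave a call. Of the 14 members called in AOM/DSS against Control, mouse 35 was within the AOM/DSS range, or beyond it in the direction of the call, for 10, as was mouse 15, and mice 2, 13 and 36 were for 7, 4 and 6. Mouse 35 was at 13.2 FPKM of Gm26532, above all AOM/DSS mice. It had 16.5 FPKM of AU020206, for which the others were at 12.8, 0.620, 1.35 and 0.867 FPKM, a log2 fold change of -1.76 ± 0.67 against AOM/DSS (adjusted P = 0.376, limma). 1810058I24Rik was at 8.94 to 13.2 FPKM, below all AOM/DSS mice (log2 fold change -0.40 ± 0.13, adjusted P = 0.356), and Bvht had a log2 fold change of -0.52 ± 0.20 (adjusted P = 0.376).

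PZH + AOM/DSS against PZH repeats the AOM/DSS contrast in PZH-treated mice, with no mouse in common with AOM/DSS against Control. Its 5 PZH mice are those of PZH against Control, so a high PZH level counts as higher there and lower here. The test called 1 of 65 members, or 1.54%, against 2.42% of 15636 genes. At unadjusted P under 0.05 stood 20 members, or 30.8%, against 20.9% of genes, of which 17 were lower. Of the 20, 2210039B01Rik, Hottip, Gm14005, Gm32391 and 9230116L04Rik averaged under 2 FPKM in a compared group, so their membership rests in part on the groups where they were high. The lower ones include AI480526, Gm38102 and 4932422M17Rik, whose overlapping exons may share reads. These, Gm20300, Gm16046, 5033406O09Rik and Gm32391 were lower here and higher in PZH against Control, each at unadjusted P under 0.05. How far the lower members reflect the PZH group or AOM/DSS was not tested. The groups did not overlap in 6 members, or 9.23%, against 7.37% of genes. A fold of FPKM + 1 above 2 with unadjusted P under 0.05 took 1 member, Gm20300, or 1.54%, against 3.13%. On the ratio of mean FPKM, Hottip (0.48), Neat1 (0.49), 2210039B01Rik (0.499) and Gm53 (0.43) also differed over 2-fold with unadjusted P under 0.05. So did Gm14005 (2.26) and Gm10451 (2.02), and the share of all genes on that ratio was not computed. The log2 fold change was negative in 41 of the 65, with a median log2 fold change of -0.13 for members and 0.04 for all genes.

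The called member was AI480526, which starts 527 bases from Setd1b, a histone methyltransferase gene, and runs the other way. It was at 11.8, 11.3, 11.2, 8.90 and 10.6 FPKM in PZH and at 5.44, 4.97, 4.05, 7.49 and 7.22 FPKM in PZH + AOM/DSS. The groups did not overlap, and it was lower by 0.81 ± 0.16 on the log2 scale (adjusted P = 0.0361, limma). AOM/DSS against Control gave a log2 fold change of only -0.20 ± 0.26 for AI480526 (adjusted P = 0.629, limma). PZH against Control gave 0.54 ± 0.17 (adjusted P = 0.493, limma). Its mean FPKM was 7.26 in Control, 10.8 in PZH, 6.41 with AOM/DSS alone and 5.83 with both treatments. How far its call reflects the high PZH level was not tested. The call was lost when any of 8 of the 10 mice was left out, with adjusted P up to 0.0879, and it held only without mouse 35 or mouse 36 of PZH + AOM/DSS. Gm38102 and 4932422M17Rik, members whose exons overlap AI480526 on the opposite strand, had log2 fold changes of -0.68 and -0.73 (adjusted P = 0.111 and 0.106), and the reads of the 3 may not be told apart. Next in order of P came 2210039B01Rik at -0.66 ± 0.16 (adjusted P = 0.06) and 5033406O09Rik at -0.54 ± 0.13 (adjusted P = 0.0623).

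The 14 members called in AOM/DSS against Control mostly kept their sign here. It was the same in 11 of 14, or 78.6%, against 94.3% of the 3466 genes called there and tested here. None of the 14 was called again, against 266 of those 3466 genes, a share too low for 0 of 14 to set the members apart. AU020206 (-0.71 ± 0.71), Gm10384 (-0.30 ± 0.19) and Gm15706 (0.19 ± 0.13) changed sign. For AI427809 the log2 fold change was 0.71 ± 0.44, for Gm10451 0.79 ± 0.23 and for Hottip -0.76 ± 0.20. Snhg18 had -0.57 ± 0.19, close to its value without PZH.

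**Figure D5:**
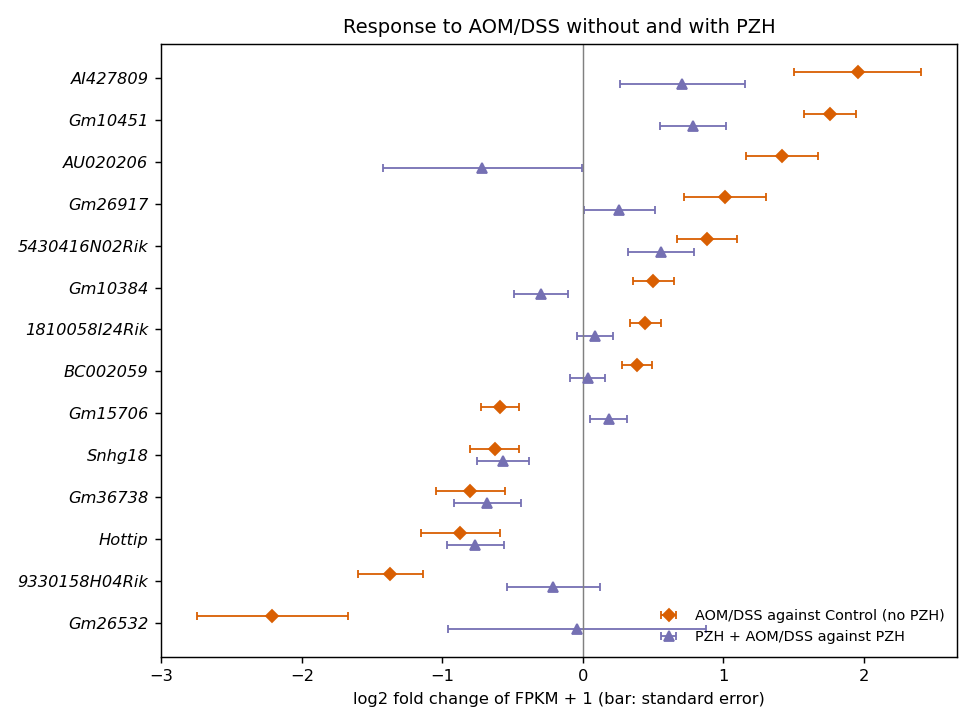
Log2 fold change of FPKM + 1 with its standard error for the 14 lincRNAs called in AOM/DSS against Control, in that comparison and in PZH + AOM/DSS against PZH. Hottip, Gm36738 and Snhg18 had similar values in both, and AU020206, Gm10384 and Gm15706 lay on opposite sides of 0.

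The interaction, which tests whether the response to AOM/DSS differed with PZH, passed adjusted P 0.05 in 0 of 65 members with limma, against 0.0129% of genes, and limma voom called 0. At unadjusted P under 0.05 stood 11 members, or 16.9%, against 9.63% of genes, of which 9 were negative. The interaction draws on the same mice as the comparisons above, so this count is not a separate result. Of these members, Gm10384 and 9330158H04Rik averaged under 2 FPKM in part of the groups, so their membership rests in part on the groups where they were high. The smallest P belonged to Gm15706 (0.77 ± 0.18, adjusted P = 0.399), Gm16046 (-0.95 ± 0.26, adjusted P = 0.424) and Gm10384 (-0.80 ± 0.24, adjusted P = 0.424). Without PZH + AOM/DSS mouse 35 the interaction was called for Gm10451 (-1.21 ± 0.23, adjusted P = 0.0121) and Gm15706 (0.76 ± 0.18, adjusted P = 0.0427), and 1.62% of 15395 genes passed in the same fit. That fit was picked out after the values were seen, and no other mouse left out gave a call.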

How the data were processed

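Libraries were made from total colon RNA after depletion of ribosomal RNA, and the study's methods, unlike the labels, also name a poly(A) mRNA isolation kit. The study's methods name FastQC, NGSQC, HISAT2, the mm10 build and StringTie. The authors deposited FPKM per transcript for each mouse, with 118434 transcripts per file, of which 22252 are assembled and unnamed, and gave no counts. The files do not name the unit: FPKM was inferred from the StringTie methods and from the values. FPKM of the 96032 Ensembl transcripts found in GENCODE M21 was summed by gene. A gene was tested where 5 of the 10 mice compared (10 of 20 for the interaction) reached 0.5 FPKM, on log2(FPKM + 1), without scaling, with limma 3.58.1 (R 4.3.3, intensity trend, two-sided) and Benjamini-Hochberg adjustment over all genes tested. Fold changes on this scale understate the change of low genes. Separate mice are the replicates. Sums were compared by exact permutation test (scipy). Alternatives were a pseudocount of 0.1, no filter, 2 scalings, limma voom on fragments estimated from FPKM, all 20 mice in 1 model and each mouse left out. The limma voom fits used sample quality weights, which give less weight to mice that deviate. Named are the 12 most abundant members, all called members (or the 3 of smallest P), the role lists, the 3 on either side of the threshold, and nearest coding genes. The scripts were tested on simulated data. The members and lists were chosen with earlier results of these data known. RefSeq promoters matched 42 of the 68 members. The nearest coding gene of 1 member is not reported here and was left out of the neighbour counts.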

Additional observations from a re-analysis of the deposited data

Results flagged for a closer look

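In 12 of 156 group values, from 10 of the 39 members named, 1 mouse stood apart from the other 4 of its group: its gap to the nearest mouse, as a share of the group's range, passed Dixon's 95% limit. Chance alone marks about 1 group in 20. In PZH + AOM/DSS, mouse 35 was apart for Gm10451 at 17.6 FPKM (gap share 0.735) and for Snhg6 at 47.4 FPKM (0.712), and mouse 2 for Hottip at 3.03 FPKM (0.88). In PZH, mouse 14 was apart for AY036118 at 2115 FPKM (gap share 1.0) and low for Gm32391 at 1.65 FPKM (0.908), and mouse 8 for Snhg12 at 10.51 FPKM (0.832). In AOM/DSS, mouse 30 was apart for 1810058I24Rik at 18.5 FPKM (0.862), and mouse 52 for Gm42418 at 95.8 FPKM (0.998). In Control, mouse 41 was apart for Gm42418 at 7.82 FPKM (0.988), mouse 50 for 2210039B01Rik at 4.83 FPKM (0.81), and mouse 37 was low for 1700020I14Rik at 10.6 FPKM (0.776). Gm42418 in PZH + AOM/DSS was listed at 0 in 4 mice and at 0.408 FPKM in mouse 15 (1.0).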

How the results depend on the processing

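Of the 14 members called in AOM/DSS against Control, 5 (AI427809, Gm10451, Gm26532, 9330158H04Rik and Gm15706) kept the call under all 6 alternatives and with each mouse left out, 8 with each mouse left out, and none changed sign. The count of calls there ranged from 9 to 15 with 1 mouse left out and from 11 to 15 under those 6 alternatives. The share of all genes called moved as well, from 16.3% to 22.8% with 1 mouse left out. Under the alternatives it ran from 11.3% without a filter to 27.1% when scaled to protein-coding FPKM. Without a filter the calls of Gm26917, Gm10384, Hottip and Gm36738 were lost, and scaling to protein-coding FPKM lost those of Hottip and Gm36738. A pseudocount of 0.1 lost that of Hottip. In PZH against Control the count stayed at 0, against at most 0.0131% of all genes. In PZH + AOM/DSS against AOM/DSS it ranged from 0 to 1 with 1 mouse left out, and for the interaction from 0 to 2, both upper values without PZH + AOM/DSS mouse 35. In PZH + AOM/DSS against PZH the 1 call became 5 with all 20 mice in 1 model and 0 without a filter, and ranged from 0 to 2 with 1 mouse left out. Over all genes the share went from 2.42% to 6.41% and 0.291% in those 2 fits. It ranged from 0.35% to 2.74% with 1 mouse left out. The cause was not tested. The summed FPKM passed no test, and its differences changed sign except in PZH + AOM/DSS against AOM/DSS. In AOM/DSS against Control it was 85.3 FPKM, -65.6 under median-of-ratios scaling, and ranged from -233 to 395 with 1 mouse left out. It ranged from -1087 to -485 in PZH against Control, from -723 to -123 in PZH + AOM/DSS against AOM/DSS and from 23.7 to 808 in PZH + AOM/DSS against PZH. Without the ribosomal DNA repeat loci it was 133 in PZH against Control and -136 in PZH + AOM/DSS against PZH, and without AY036118 it was 141 and -127. Scalings and member subsets for the sums, the choice of neighbour by start site, and the count of members with both group means at 2 FPKM or more were added after the data were seen. No paired analysis was possible because mouse numbers are not shared between groups. Depth limits the lowest values: those of Mir142hg in Control rest on 10.95 estimated fragments per mouse on average.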
